A study of Mus musculus with 10 samples.

Results

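The myelin and mature oligodendrocyte genes described here are 9 listed genes, Mbp, Mog, Mag, Mobp, Cnp, Cldn11, Ugt8a, Fa2h and Bcas1. Every probe set whose annotation named exactly 1 gene, and that gene a listed one, was taken, which gave 25 of 45101 probe sets and 9 of 18193 genes. They were measured on 10 arrays, 1 per mouse, made from the preoptic region of the hypothalamus cut out by laser capture microdissection. The tested arrays are 5 labelled mPGES-1 KO (knockout for microsomal prostaglandin E synthase-1, the inducible prostaglandin E2 synthase encoded by Ptges), and 5 labelled WT. All 10 mice had the DBA1/lacJ background and received 120 µg/kg of lipopolysaccharide (LPS), a bacterial cell wall component that causes fever, into the peritoneum 5 h before the brains were removed. Ages were not given in the sources used here, every mouse was treated with LPS, and no untreated mouse was analysed here, so the effect of LPS on myelin genes was not measured.

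Oligodendrocytes wrap axons of the central nervous system in myelin, a stack of compacted membrane built from a few abundant proteins and from galactolipids. Mature oligodendrocytes make the transcripts of these proteins in large amounts, and the transcription factors SOX10 and MYRF drive them as the cell differentiates. The preoptic region controls body temperature during fever and holds neurons and glia, with myelinated fibres running through it.

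The arrays carry one check of the labels and several differences that touch every gene. Ptges was not lower in the arrays labelled KO. Its probe set 1439747_at had intensities of 76.1, 17.5, 56.2, 67.8 and 32.2 in arrays labelled KO, against 5.29, 2.22, 9.33, 4.35 and 1.51 in arrays labelled WT (limma adjusted p = 0.091 over all probe sets naming 1 gene). The other Ptges probe sets, 1449449_at and 1449450_at, overlapped between the groups, at log2 differences of 0.95 and 0.27. All Ptges probe sets were dim, with mean log2 values of 5.15, 5.23 and 5.55, under the filter of 5.83 used for testing. Which part of the gene was deleted is not given in the labels, so these probe sets may check nothing, and KO and WT below mean the arrays labelled so. The arrays had been scaled to one trimmed mean, 200.002, yet their median intensities were 24.7 to 29.9 in KO arrays and 32.0 to 44.8 in WT arrays. The hybridization controls gave 4727 to 8115 in KO arrays and 6902 to 16616 in WT arrays. Spike-in RNA gave signal on 7 arrays and was near 0 on KO replicate 3 and WT replicates 2 and 5. On every array the 3′ control probe set far exceeded the 5′ one. The ratio was 24.6 to 53.4 for Gapdh and 112 to 355 for actin, so signal lay mostly near the 3′ ends. Its part in differences between probe sets of one gene was not tested. Of 12 preoptic region genes with a probe set, 11 were above the filter on dim genes, among them Gal, Nts and Esr1.

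No listed gene passed the test between KO and WT. A gene was counted as called at a limma adjusted p below 0.05 over all 10916 genes above the filter (which left out the dimmest 40% of genes), each represented by 1 probe set. Of the 8 listed genes above the filter 0 were called, where 0.0733% of all tested genes were (0.0183% higher and 0.055% lower in KO arrays). Of these 8 genes 5 averaged higher and 3 lower in KO arrays, where 50.9% of all tested genes averaged lower, with a median log2 difference of 0.04 against -0.01 over all genes tested. That median turned to -0.15 with _x_at probe sets allowed to stand for a gene. At an unadjusted limma p below 0.05 there were 2 of the 8, or 25%, against 17.2% of all genes tested. They were Ugt8a, which was higher in KO arrays, as 8.29% of all genes were at that p, and Bcas1, which was lower, as 8.96% were. The ninth gene, Mog, lay below the filter. In these tissue samples a difference in the number of oligodendrocytes and a difference in RNA per oligodendrocyte cannot be told apart.

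Promoter sequences are shown, 1 window per gene, for the 6 genes that had one at hand, because MYRF and SOX proteins are known drivers of myelin genes. Each runs from 250 bases before to 50 bases after a RefSeq gene start in build GRCm38.p6, 5′ to 3′ on the gene's strand, and capitals mark matches to the SOX core motifs ACAAAG and ACAATG or to the MYRF motifs CTGGCAC and CTGGTAC, on either strand.
Ugt8a, chr3:125938603-125938902, minus strand: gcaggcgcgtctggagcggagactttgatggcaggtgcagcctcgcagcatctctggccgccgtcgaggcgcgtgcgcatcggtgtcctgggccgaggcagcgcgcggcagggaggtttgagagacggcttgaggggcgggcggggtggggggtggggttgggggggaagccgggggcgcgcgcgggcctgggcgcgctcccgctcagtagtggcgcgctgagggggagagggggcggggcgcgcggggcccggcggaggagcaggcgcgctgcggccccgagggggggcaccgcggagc
Cldn11, chr3:31149670-31149969, plus strand: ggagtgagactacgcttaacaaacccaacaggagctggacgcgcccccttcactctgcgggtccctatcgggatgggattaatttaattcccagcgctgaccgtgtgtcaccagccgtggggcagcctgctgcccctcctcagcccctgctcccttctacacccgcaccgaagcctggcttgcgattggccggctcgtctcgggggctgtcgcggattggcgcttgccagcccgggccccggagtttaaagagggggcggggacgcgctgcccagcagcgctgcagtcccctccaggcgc
Mobp, chr9:120149492-120149791, plus strand: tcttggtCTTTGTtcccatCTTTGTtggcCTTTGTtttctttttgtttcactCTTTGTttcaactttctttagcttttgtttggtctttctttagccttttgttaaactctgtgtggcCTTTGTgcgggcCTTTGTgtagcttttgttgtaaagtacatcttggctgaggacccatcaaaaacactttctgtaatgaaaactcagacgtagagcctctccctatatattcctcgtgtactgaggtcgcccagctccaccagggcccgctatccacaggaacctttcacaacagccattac
Mag, chr7:30914814-30915113, minus strand: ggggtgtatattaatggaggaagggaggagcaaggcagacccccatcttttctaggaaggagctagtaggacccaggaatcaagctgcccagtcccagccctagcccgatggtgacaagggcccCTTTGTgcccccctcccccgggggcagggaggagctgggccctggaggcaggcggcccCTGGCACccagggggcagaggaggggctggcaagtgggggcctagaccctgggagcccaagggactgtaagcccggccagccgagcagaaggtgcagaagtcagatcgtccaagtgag
Cnp, chr11:100574689-100574988, plus strand: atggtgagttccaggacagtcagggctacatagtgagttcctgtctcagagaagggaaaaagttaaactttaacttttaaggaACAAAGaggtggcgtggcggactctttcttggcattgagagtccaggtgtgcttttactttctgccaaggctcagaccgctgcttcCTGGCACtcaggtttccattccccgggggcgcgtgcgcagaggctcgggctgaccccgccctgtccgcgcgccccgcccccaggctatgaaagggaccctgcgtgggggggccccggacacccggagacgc
Mog, chr17:37023349-37023648, minus strand: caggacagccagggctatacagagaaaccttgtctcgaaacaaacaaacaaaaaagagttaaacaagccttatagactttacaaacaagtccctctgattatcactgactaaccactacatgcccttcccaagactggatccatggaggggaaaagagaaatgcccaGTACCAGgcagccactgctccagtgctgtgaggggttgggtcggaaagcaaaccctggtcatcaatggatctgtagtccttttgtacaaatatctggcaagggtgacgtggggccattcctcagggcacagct

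Promoter windows were at hand for 6 of the 9 genes, 8 windows in all because Mag has several starts. The Mobp window held 6 SOX matches, the most of any window, and 1 of 32851 windows reached that count. A SOX match was present in 4 of these 8 windows, from 3 of the 6 genes (Mag, Mobp and Cnp), and in 28.6% of all windows. A MYRF match was present in 4 of the 8, from 3 of the 6 genes (Mog, Mag and Cnp), and in 7.10% of all windows. The matching Mag windows overlap and hold the same matches, while a further Mag window, not shown, held neither. The Ugt8a and Cldn11 windows held neither, and their G and C content was 78.3% for Ugt8a and 66.3% for Cldn11. No SOX match overlapped a MYRF match in these windows, and a match of letters is a description of the sequence, not a binding site.

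Mbp, Mobp and Cldn11 encode structural proteins of the sheath. Mbp, for myelin basic protein, which holds the cytoplasmic faces of the membrane together, had 8 probe sets, 7 of them above the filter. The one that stands for the gene, 1433532_a_at, had intensities of 8918, 11506, 6367, 10602 and 8567 in KO arrays, against 11658, 8856, 11790, 7605 and 8609 in WT arrays. The groups overlapped over most of their range, and the lowest array was KO replicate 3. The log2 difference was -0.08 (SE 0.17, 95% interval -0.44 to 0.27, limma adjusted p = 0.829, n = 5 per group).

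Other Mbp probe sets did not all give that picture. Probe set 1454651_x_at had 31907, 25050, 24641, 30037 and 19804 in KO arrays, against 37113, 37523, 33260, 42380 and 35600 in WT arrays. Every KO array lay below every WT array, which was so for 3.37% of all probe sets naming 1 gene. Its log2 difference was -0.52 (SE 0.16, limma adjusted p = 0.192 over all probe sets naming 1 gene), and it was the only one of the 25 whose groups did not overlap. Probe set 1436201_x_at averaged 27510 ± 4588 in KO arrays and 38520 ± 7018 in WT arrays (SD, n = 5 each), at a log2 difference of -0.48 (SE 0.17, limma adjusted p = 0.239). Probe set 1419646_a_at went the other way, with 2029 ± 215 in KO arrays and 1806 ± 217 in WT arrays (SD, n = 5 each; log2 0.17, SE 0.13). Names ending in _x_at mark probes that can also bind other transcripts.

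Mobp encodes a myelin-associated basic protein of compact myelin, and 3 of its 5 probe sets were above the filter. Its standing probe set 1433785_at had 4733, 4270, 3760, 5143 and 3245 in KO arrays, against 5100, 3636, 3327, 3440 and 4259 in WT arrays. Both groups spanned nearly the same range, and the log2 difference was 0.10 (SE 0.16, interval -0.23 to 0.43, limma adjusted p = 0.787). Probe set 1421010_at had 363, 404, 369, 460 and 399 in KO arrays, against 197, 408, 451, 205 and 286 in WT arrays. There WT replicates 1, 4 and 5 lay below every KO array while WT replicates 2 and 3 lay within the KO range (log2 0.42, SE 0.22, limma adjusted p = 0.420). The 2 Mobp probe sets below the filter pointed to lower values in KO arrays, at log2 -0.72 and -0.74, so the probe sets of this gene disagree.

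Cldn11 encodes claudin 11, which forms the tight junctions between layers of the sheath. Its single probe set had 636, 649, 487, 659 and 441 in KO arrays, against 777, 522, 567, 438 and 445 in WT arrays. The highest array was WT replicate 1, and the groups overlapped (log2 0.07, SE 0.19, interval -0.32 to 0.47, limma adjusted p = 0.867).

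Mag and Mog are the surface proteins of the list. Mag encodes myelin-associated glycoprotein, which faces the axon, and had 55.5, 39.1, 54.6, 51.0 and 26.3 in KO arrays, against 64.6, 131, 67.5, 101 and 35.9 in WT arrays. All but 1 of the WT arrays lay above every KO array, and WT replicate 5 lay within the KO range. The log2 difference was -0.59 (SE 0.28, interval -1.18 to 0.0013, limma adjusted p = 0.291). Taking the 7 arrays that had spike-in signal gave -0.68, and the 3 without it gave -0.31, while with the hybridization controls as a covariate it turned to 0.23.

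Mog encodes myelin oligodendrocyte glycoprotein, on the outermost face of the sheath, and its only probe set was too dim for the main test. Intensities were 2.58, 9.35, 19.2, 2.14 and 1.71 in KO arrays, against 25.9, 34.3, 35.9, 1.66 and 28.8 in WT arrays. In WT replicate 4 the value was as low as in the lowest KO arrays, and the other WT arrays lay above all KO arrays. In the fit over all 18193 genes the log2 difference was -0.80 (SE 0.31, limma adjusted p = 0.242). At such intensities the size depends on the pseudocount, with log2 -1.75 at a pseudocount of 1 and -0.32 at 64.

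**Figure D1:**
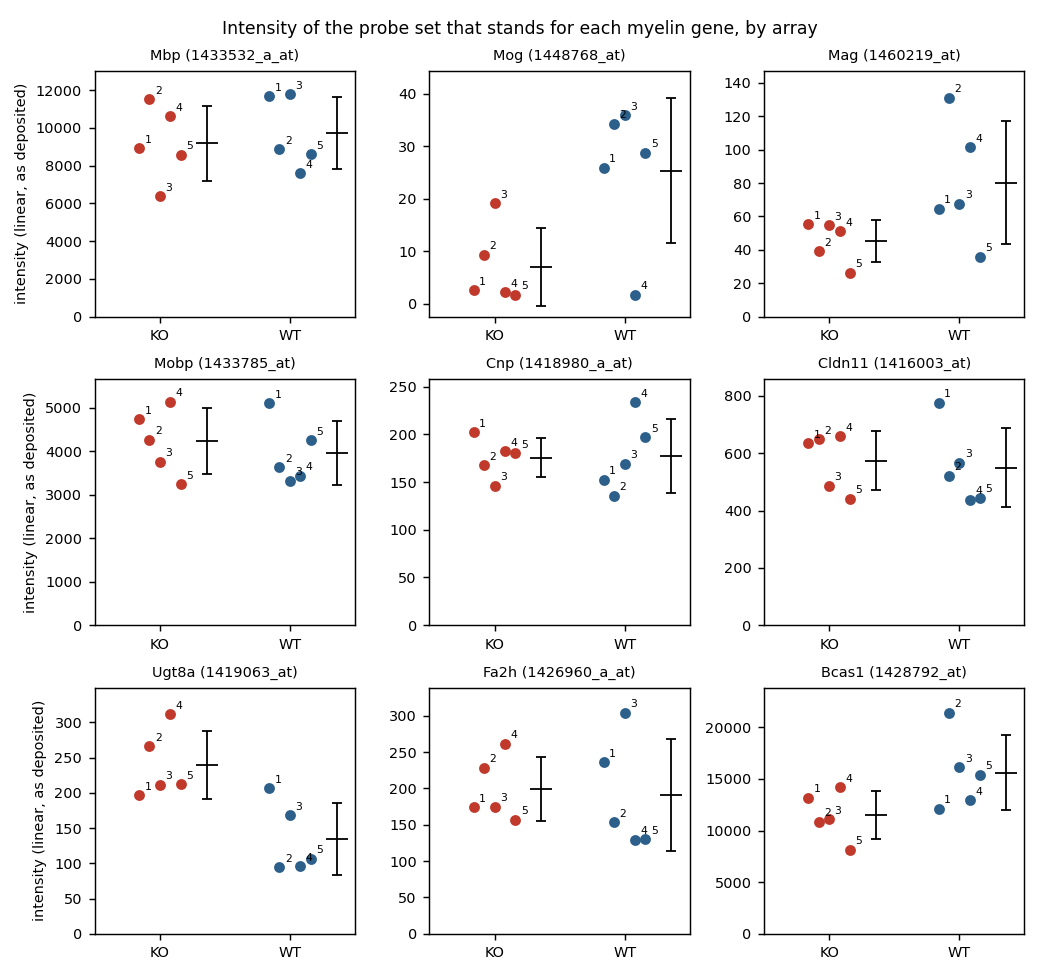
Intensity as deposited (linear axis) of the probe set that stands for each of the 9 genes, for the 5 KO arrays (red, left) and the 5 WT arrays (blue, right), numbered by replicate, with mean and SD in black. The groups overlap in every panel. For Ugt8a this is only through WT replicate 1, for Mag only through WT replicate 5 and for Mog only through WT replicate 4.

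Enzymes made up the next group. Ugt8a encodes the galactosyltransferase that makes galactosylceramide, the main myelin galactolipid. Its probe set 1419063_at had 197, 267, 211, 312 and 212 in KO arrays, against 207, 94.7, 168, 96.3 and 106 in WT arrays. Only WT replicate 1 reached into the KO range, where it exceeded KO replicate 1 alone. The mean was 239.8 ± 48.3 in KO arrays and 134 ± 50.5 in WT arrays (SD, n = 5 each), a log2 difference of 0.81 or 1.75-fold on the log2(intensity + 16) scale (SE 0.23, interval 0.33 to 1.29). This did not pass over all genes (limma adjusted p = 0.095, unadjusted p = 0.0026).

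The Ugt8a difference kept its direction under all 26 other settings, from log2 0.44 to 1.09. It was 0.64 over the 7 spike-in arrays and 0.97 over the 3 others, of which 1 was KO. It passed the threshold under median centring of the arrays (limma adjusted p = 0.018), a scaling that moved the median difference of all tested genes to 0.27. The second Ugt8a probe set, 1419064_a_at, was below the filter, with at most 14.6 on any array, and its log2 difference was 0.06 (SE 0.22).

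Fa2h encodes fatty acid 2-hydroxylase, which makes the hydroxylated fatty acids of myelin galactolipids and so acts in the same pathway as Ugt8a. It had 174, 228, 175, 262 and 157 in KO arrays, against 236, 154, 304, 129 and 130 in WT arrays. WT replicate 3 was the highest array and KO replicate 4 the next, WT replicates 2, 4 and 5 were the lowest, and the KO range lay inside the WT range (log2 0.11, SE 0.24, interval -0.40 to 0.62, limma adjusted p = 0.847).

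Cnp encodes the phosphodiesterase CNPase, an abundant enzyme of non-compact myelin. Its standing probe set 1418980_a_at had 202, 167, 146, 182 and 180 in KO arrays, against 152, 136, 169, 234 and 197 in WT arrays, at a log2 difference of 0.00067 (SE 0.18, interval -0.39 to 0.39, limma adjusted p = 0.999). Probe set 1437341_x_at of the same gene had 9421, 7813, 7185, 8666 and 7081 in KO arrays, against 10903, 8950, 10369, 11064 and 10443 in WT arrays. There only KO replicate 1 exceeded any WT array (log2 -0.37, SE 0.13, limma adjusted p = 0.258 over all probe sets naming 1 gene).

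Bcas1 encodes a cytoplasmic protein that marks actively myelinating oligodendrocytes. Its probe set 1428792_at had 13188, 10866, 11124, 14168 and 8157 in KO arrays, against 12102, 21406, 16141, 12933 and 15402 in WT arrays. The groups overlapped between KO replicates 1 and 4 and WT replicates 1 and 4, with KO replicate 5 lowest and WT replicate 2 highest. Its log2 difference was -0.43 (SE 0.17, interval -0.79 to -0.08, limma adjusted p = 0.198, unadjusted p = 0.020). The other 2 Bcas1 probe sets were below the filter, at log2 -0.09 and -0.15.

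Taken probe set by probe set, the direction went with brightness in most ranges. All 6 myelin probe sets with a mean log2 value above 12 averaged lower in KO arrays (4 of Mbp, 1 of Cnp and 1 of Bcas1), with a median of -0.40. Of all 766 probe sets that bright, 80.8% were also lower in KO arrays, with a median of -0.22. The 5 myelin probe sets between 8 and 12 averaged higher in KO arrays, where the medians over all probe sets were 0.08 between 8 and 10 and 0.03 between 10 and 12. Between the filter and 8, the range that holds Ugt8a and Mag, 3 myelin probe sets averaged higher and 3 lower, against 57.9% of all 9524 lower. Below the filter 6 of 8 myelin probe sets averaged lower, against 72.9% of all 17911 probe sets that dim.

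After quantile normalization, which gives all arrays one distribution, the median of the 6 brightest myelin probe sets was 0.07, and the median over all probe sets that bright was 0.0061. Mbp 1454651_x_at was then at log2 0.04 and 1436201_x_at at 0.10, Cnp 1437341_x_at at -0.18 and Bcas1 1428792_at at -0.16. Ugt8a 1419063_at stayed at 0.84, Mag was at -0.42 and Mog at -0.63. On the values as deposited, without that normalization, 0 of the 25 probe sets passed the limma threshold, as 0% of all 34945 did. On the same deposited values 7 of the 25, or 28%, had an unadjusted limma p below 0.05, against 13% of all. Of these 7, 6 were lower in KO arrays and 1, Ugt8a, was higher. Over all 34945 probe sets 4543 reached that p, and 3063 of them, 8.77% of all, were lower. The 6 were Mbp 1436201_x_at and 1454651_x_at, Cnp 1437341_x_at, Bcas1 1428792_at and, below the filter, Mog and Mobp 1450088_a_at.

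**Figure D2:**
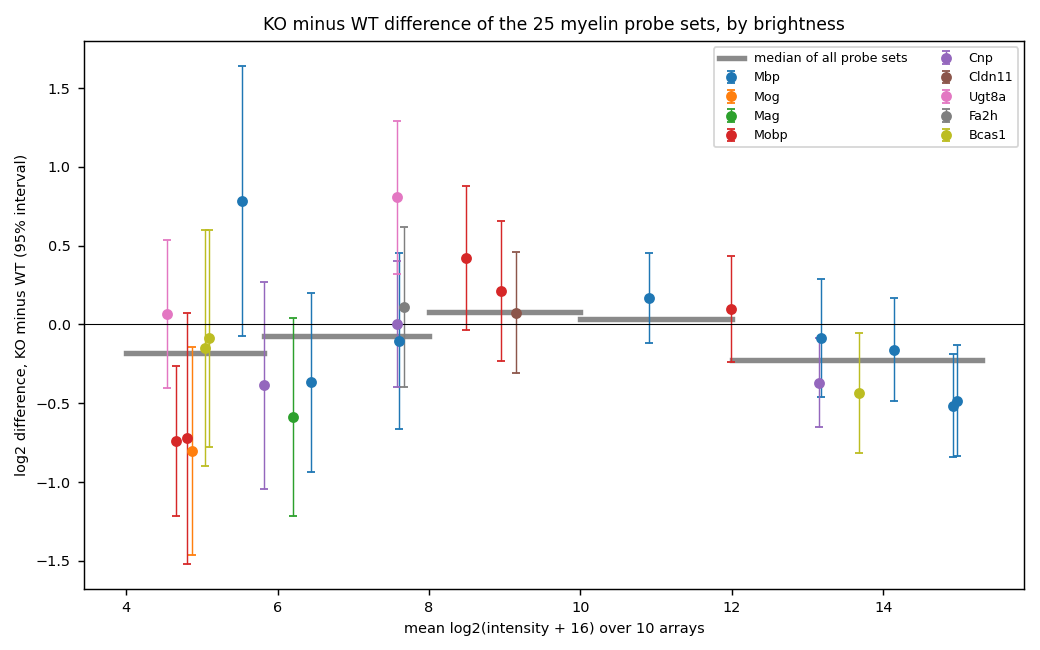
The log2 difference, KO minus WT, of the 25 myelin probe sets with 95% intervals (vertical axis) against mean log2(intensity + 16) over 10 arrays (horizontal axis), coloured by gene, with grey bars for the median of all probe sets in each brightness range. The 6 points above 12 all lie below 0, where the grey bar stands at -0.22, and the highest points are Ugt8a at 0.81 and a dim Mbp probe set at 0.79.

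Whether myelin genes varied together from mouse to mouse was asked with group means removed, over 10 arrays and the 8 genes above the filter. Over the 28 pairs of genes Pearson's r had a median of 0.15 and ran from -0.34 to 0.88. Of these pairs 16, or 57.1%, had r above 0, against 50.3% of all pairs of tested genes. Over all pairs of the 10916 tested genes the median r was 0.0034, with the middle 50% between -0.28 and 0.28. Permutation within groups (100000 draws) gave 7 pairs an unadjusted p below 0.05 and 0 pairs an adjusted p below 0.05 over the 28. The share of all pairs of tested genes at that unadjusted p was not computed. The arrays share scaling, dissection and amplification differences, so these values describe the 10 arrays.

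The high values were concentrated in 4 genes, chosen here after their values were seen. Mbp, Cldn11, Ugt8a and Fa2h had r between 0.73 and 0.88 in all 6 of their pairs. The highest was Ugt8a with Fa2h, the pair of galactolipid enzymes, at r = 0.88 and Spearman's rho = 0.78 (permutation p = 0.0090 and 0.030, adjusted p = 0.092 and 0.204). Without the 2 arrays farthest from the median of Ugt8a, KO replicate 4 and WT replicate 1, that r was 0.92, and it was 0.87 over the 7 spike-in arrays and 0.87 after quantile normalization. Leaving out any 1 array kept it between 0.86 and 0.93.

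Mbp followed both enzymes, with r = 0.80 with Fa2h (rho 0.72, permutation p = 0.0077 and 0.029, adjusted p = 0.092 and 0.204) and r = 0.78 with Ugt8a (rho 0.67, permutation p = 0.012 and 0.0504, adjusted p = 0.092 and 0.235). Without KO replicates 2 and 3, the arrays farthest from the median of Mbp, these were 0.95 and 0.92. Over the 7 spike-in arrays they were 0.94 and 0.91. Cldn11 with Mbp reached r = 0.76 (rho 0.71, permutation p = 0.013 and 0.037, adjusted p = 0.092 and 0.204), 0.79 without the same 2 arrays and 0.77 over the 7.

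These 4 genes shared their high and low arrays. Relative to the mean of their own group, all 4 were high in KO replicates 2 and 4 and in WT replicates 1 and 3. All 4 were low in KO replicates 3 and 5 and in WT replicates 2, 4 and 5, while KO replicate 1 was mixed. Deviations of Ugt8a ran from -0.24 to 0.38 within KO arrays and from -0.38 to 0.63 within WT arrays, and those of Fa2h from -0.29 to 0.39 and from -0.43 to 0.71. Mobp followed Cldn11 at r = 0.75 (rho 0.77, permutation p = 0.022 and 0.021, adjusted p = 0.104 and 0.204), but this was 0.50 without KO replicate 4 and WT replicate 1. It also held only for the standing Mobp probe set. The other Mobp probe sets above the filter, 1436263_at and 1421010_at, had r = 0.31 and -0.07 with Cldn11.

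Bcas1, Mag and Cnp did not follow that pattern. Bcas1 and Mag were nearest to each other, at r = 0.54 (rho 0.52, permutation p = 0.134 and 0.161, adjusted p = 0.467 and 0.502; 0.55 without WT replicates 2 and 5, and 0.65 over the 7 spike-in arrays), with KO replicate 5 low and WT replicate 2 high in both. Cnp had r below 0 with each of the other 7 genes, from -0.34 with Fa2h to -0.01 with Mobp, whereas its probe set 1437341_x_at had r above 0 with all 7, at most 0.63, with Mobp.

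Different probe sets of one gene did not always follow each other either. Over the 25 pairs of probe sets of the same gene that were both above the filter the median r was 0.18. Mbp 1433532_a_at had r = 0.83 with 1456228_x_at but 0.13 with 1436201_x_at and -0.02 with 1454651_x_at, while these last probe sets had r = 0.70 with each other. Probe set 1436201_x_at instead had r = 0.81 with Bcas1 and 0.86 with Mag. Probe set 1456228_x_at had r = 0.73 with Fa2h, 0.73 with Cldn11 and 0.55 with Ugt8a. Over the 5 other Mbp probe sets above the filter r with Fa2h ran from -0.62 to 0.19. For Mbp the 4-gene pattern thus rests on 1433532_a_at and 1456228_x_at, the latter with a lower r with Ugt8a.

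**Figure D3:**
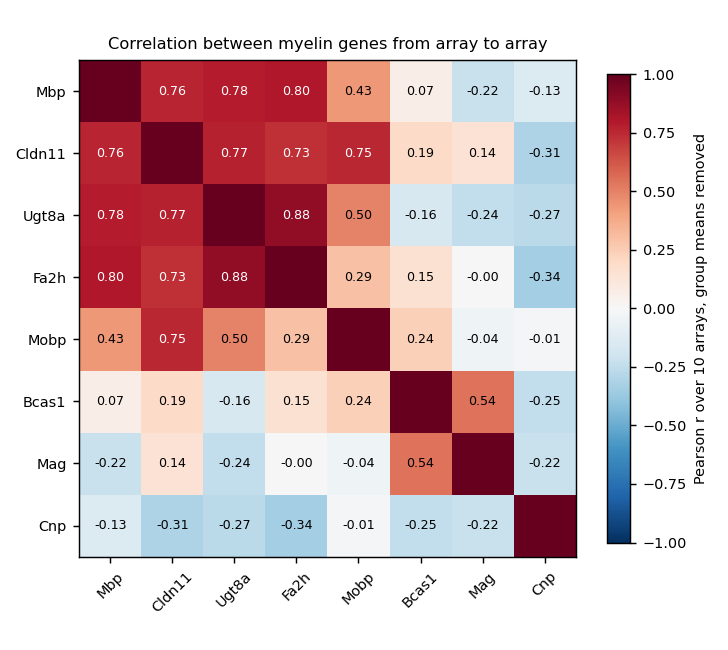
Pearson's r between the 8 myelin genes above the filter over 10 arrays with group means removed, from -1 (blue) to 1 (red). Mbp, Cldn11, Ugt8a and Fa2h form a block with r from 0.73 to 0.88, and Cnp is below 0 with every other gene.

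**Figure D4:**
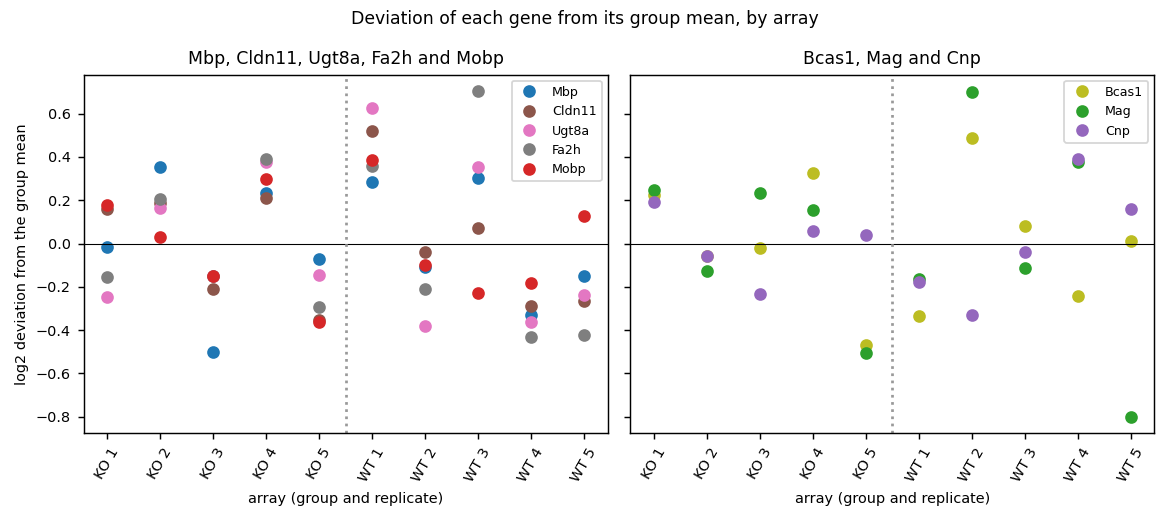
Log2 deviation of each gene from the mean of its own group (vertical axis) on each array (horizontal axis, KO left of WT), with Mbp, Cldn11, Ugt8a, Fa2h and Mobp on the left and Bcas1, Mag and Cnp on the right. The left-hand genes are mostly high in KO replicate 4 and WT replicate 1 and low in KO replicate 5 and WT replicate 4, while Mag runs from -0.80 to 0.70 within WT arrays.

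Other genes of mature oligodendrocytes and myelin, a list of 25, had 17 tested members. Of these 5 averaged higher and 12 lower in KO arrays with a median log2 difference of -0.11, and 0 passed by limma. At an unadjusted p below 0.05 there was 1, or 5.88%, against the 17.2% of all genes. That gene was Sirt2, a deacetylase abundant in myelin, at log2 9.25 ± 0.06 in KO arrays and 9.63 ± 0.10 in WT arrays (SD, n = 5 each), with no overlap, as in 4.68% of all tested genes (log2 -0.37, SE 0.13, limma adjusted p = 0.161). Opalin, a transmembrane protein of the myelin sheath, came next at -0.44 (SE 0.22, limma adjusted p = 0.312). Mal, Ermn, Tspan2 and Plekhb1 lay between -0.07 and 0.08.

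Among 7 tested transcription factors of the lineage 0 passed, 2 averaged higher and 5 lower, and Myrf alone had an unadjusted p below 0.05 (14.3%, against 17.2% of all tested genes). Its probe set had 26.9, 83.7, 69.6, 77.3 and 59.2 in KO arrays, against 145, 135, 119, 124 and 128 in WT arrays. All 5 KO arrays lay below all 5 WT arrays, and groups did not overlap in 4.68% of all tested genes. The log2 difference was -0.94 (SE 0.23, limma adjusted p = 0.073), -0.97 over the 7 spike-in arrays and -0.83 after quantile normalization (limma adjusted p = 0.137). Nkx6-2 was at -0.30, Olig1 at -0.22 and Sox10 at -0.19, with limma adjusted p between 0.458 and 0.740. Olig1 lay above log2 12, where the median over all probe sets was also -0.22.

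Genes of oligodendrocyte precursors and newly formed oligodendrocytes had 8 tested members, of which 6 averaged higher and 2 lower in KO arrays, with 0 at an unadjusted limma p below 0.05, against 17.2% of all tested genes, and a median of 0.27. Pdgfra, the growth factor receptor of precursors, was at 0.36 (SE 0.18, limma adjusted p = 0.304), and Tnr, a matrix protein gene, at -0.35 (SE 0.21, limma adjusted p = 0.407). Of 12 tested lipid synthesis genes 7 averaged higher and 5 lower. Hmgcs1, a cholesterol synthesis enzyme, was at -0.46 (SE 0.13, limma adjusted p = 0.098) with no overlap, as in 4.68% of all tested genes. It lay above log2 12, where 80.8% of all probe sets were lower in KO arrays (median -0.22). Sqle, which acts later in that pathway, was at 0.49 (SE 0.23, limma adjusted p = 0.293). Ncmap, a gene of peripheral myelin, was at -0.91 (SE 0.26, limma adjusted p = 0.098) and Pmp22 at -0.22.

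Some markers of other cells also differed between KO and WT arrays, and their part in the values above was not tested. Of all tested genes 50.9% averaged lower in KO arrays and 17.2% had an unadjusted limma p below 0.05. That p was reached by 80% of striatal, 36.4% of neuron and 33.3% each of endothelial, microglial and astrocyte markers tested. It was reached by 9.09% of preoptic region genes and 0% of choroid plexus and ependymal genes. Outside the striatal list 0 of these markers passed. Of 5 tested striatal neuron markers 4 averaged higher in KO arrays and 1 passed, Tac1 at 1.42 (SE 0.22, limma adjusted p = 0.031), followed by Pde10a at 1.60 (SE 0.33, limma adjusted p = 0.056). Of 11 neuron markers 8 averaged higher, among them Snap25 at 0.60 and Gad1 at 0.97. The other 3 averaged lower, Stmn2 at -0.35, Tubb3 at -0.23 and Rbfox3 at -0.17. All 6 endothelial and all 3 microglial markers tested averaged lower, among them Slc2a1 at -0.47, Flt1 at -0.53, Csf1r at -0.58 and Cx3cr1 at -0.65. Astrocyte markers split 4 higher and 5 lower, with Gfap at -0.73 (SE 0.16, limma adjusted p = 0.057) and Aldoc at -0.29. For Gfap, Aldoc and Csf1r both groups averaged above log2 12, where 80.8% of all probe sets were lower in KO arrays (median -0.22). Their values after quantile normalization are not given here. Of 2 tested choroid plexus and ependymal genes Ccdc153 was at 0.65 and Ttr at 0.34. Of 11 preoptic region genes 6 averaged higher, among them Nts at 0.41 and Esr1 at 0.34. The other 5 averaged lower, among them Lhx6 at -0.49 and Trh at -0.46.

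The genes outside the list whose pattern was most like the mean of the 8 myelin genes, by Pearson's r over 10 arrays with group means removed, were Crebzf (0.93), Dip2a (0.93), Clic5 (0.91), Pcnp (0.90), Rragc (0.90), Nr2f2 (0.89), Prelp (0.88), Dnmt3a (0.88), Acot6 (0.87) and Cfap52 (0.87). They were picked as the highest of 10916, so no test is attached, and none belongs to the lists used here. Over the other mature oligodendrocyte genes the median of the same r was 0.33, with 11 of 17 above 0 and Sirt2 the highest at 0.66. It was 0.21 over endothelial markers, 0.13 over lipid synthesis genes, 0.13 over lineage transcription factors, 0.11 over astrocyte markers, 0.10 over precursor genes, 0.07 over microglial markers, 0.01 over striatal markers, -0.06 over neuron markers, -0.24 over preoptic region genes and -0.0036 over all tested genes.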

How the data were processed

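The 10 arrays were grouped by their titles. The authors deposited linear probe set intensities for which the submitters' processing notes name GCOS, and its version and settings are not given here. Each array had one mean after trimming 2% of probe sets at either end. Probe sets were named from the platform annotation, and 34741 of 34945 naming a single gene matched RefSeq (GRCm38.p6) by Entrez ID.

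The scale of the test was log2(intensity + 16), which understates fold changes of dim genes. The brightest probe set by mean log2 value stood for a gene, with _x_at names used if there was no other, and the dimmest 40% of genes were left out (mean log2 value 5.83). Groups were compared by limma (lmFit and trended eBayes) with genotype as the only term and Benjamini-Hochberg adjustment over all genes, or over all 34945 probe sets for single probe sets. Correlations used group-centred values with permutation within groups. Replicate numbers were not read as pairs, and the titles do not say whether mice were paired. Procedures were tested on simulated data.

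Members, lists, tests and settings were chosen with earlier results of these data known. Named genes were all members, each list's 2 tested genes of smallest p and any that passed, the 10 most alike, and Ptges. Mal, Ermn, Tspan2, Plekhb1, Olig1, Sox10, Gja1, Stmn2, Tubb3, Rbfox3, Lhx6, Trh and Gal were named after their values were seen. Other settings were a pseudocount of 1 or 64, median centring, quantile normalization, other filters, other uses of probe sets, no trend, array weights, a replicate block, a spike-in block, arrays with spike-in signal (at least 100) alone and leaving out each array. Settings added after the data were seen were _x_at names included, hybridization controls as a covariate and arrays without spike-in signal alone. Analyses used R 4.3.3, limma 3.58.1 and version 1.17.8 of data.table, with numpy 2.4.6, pandas 2.3.3 and matplotlib 3.10.9 under Python 3.11.15. Each array came from a separate mouse, and precision is limited by their number.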

Additional observations from a re-analysis of the deposited data

Results flagged for a closer look

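Of 50 sets of 5 arrays (25 probe sets in each group), 2 held an array far from the other 4, and chance alone flags about 1 in 20 such sets. Mog had 1.66 in WT replicate 4, against 25.9 to 35.9 in the other WT arrays. The dim Mobp probe set 1441308_at had 33.6 in KO replicate 4, against 1.42 to 2.44 in the other KO arrays.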

How the results depend on the processing

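The count of genes called over all genes, 8 as deposited (2 higher, 6 lower), was 10 and 24 with pseudocounts of 1 and 64, 0 with quantile normalization, 1053 with median centring (1027 higher, 26 lower), 3 with no filter, 65 with the dimmest 60% left out, 1 with the mean of probe sets, 0 with every probe set tested on its own, 112 with array weights, 0 without a trend, 2 with the replicate block, 16 with the spike-in block, 0 and 1 within arrays with and without spike-in signal, 0 with hybridization controls as a covariate and 0 to 39 leaving out each array (31 without KO replicate 1, 5 without KO replicate 4, 39 without WT replicate 3, 29 without WT replicate 5 and 0 without each of the others). Where 0 were called, 1214 to 3318 had an unadjusted p below 0.05. The listed genes called were 0 throughout, except 1 (Ugt8a) with median centring. Those at an unadjusted limma p below 0.05 were 2 as deposited. They were 3 with a pseudocount of 64, with no filter, without a trend and with the replicate block. They were 1 with quantile normalization and with hybridization controls as a covariate. They were 4 with every probe set on its own and with _x_at names included, and 1 to 3 leaving out each array. The members' median difference was 0.32 with median centring, -0.15 with _x_at names included, -0.12 with the mean of probe sets, -0.11 within arrays without spike-in signal, -0.02 within arrays with it, -0.08 with every probe set on its own, -0.0086 with the spike-in block and -0.01 to 0.09 leaving out each array. The median pair correlation was 0.39 within arrays with spike-in signal and -0.05 to 0.24 leaving out each array. The pair correlation within the 3 arrays without spike-in signal could not be given.

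Directions turned for 6 genes, Mag among them. Cnp was at -0.0019 with a pseudocount of 64, -0.25 with the mean of probe sets, -0.012 with array weights, -0.040 with the spike-in block, -0.37 with _x_at names included, -0.14 with hybridization controls, -0.15 within arrays without spike-in signal and -0.082 to 0.098 leaving out each array. Mbp was at 0.14 with quantile normalization, 0.19 with median centring and -0.17 to 0.04 leaving out each array. Cldn11 was at -0.0014 with quantile normalization, Mobp at -0.15 with the mean of probe sets and -0.065 within arrays without spike-in signal, Fa2h at -0.063 within arrays with it and Mag at 0.23 with hybridization controls. The causes were not tested. Same-numbered arrays of the groups correlated between -0.13 and 0.07 after group means were removed, so the numbers were not read as pairs.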
